A study of Mus musculus with 9 samples.

Results

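Gas5, Snhg1, Snhg3, Snhg5, Snhg6, Snhg8, Snhg12, Snhg15, Snhg17 and Epb41l4aos are 10 mouse noncoding genes whose primary transcripts carry small nucleolar RNAs (snoRNAs). They were chosen by symbol as spliced noncoding snoRNA hosts known as substrates of nonsense-mediated mRNA decay (NMD), and they are 10 of the 54325 gene symbols of the deposited table, with 87 of its 140658 transcripts. All 10 genes had counts, on 64 of the 87 transcripts. The study asked which RNAs are bound by phosphorylated UPF1 (p-UPF1) in N2A (Neuro-2A) cells, a mouse neuroblastoma line. Its RIP-seq consisted of 3 libraries from input RNA (Input), 3 from immunoprecipitation with control rabbit IgG (rIgG IP) and 3 from immunoprecipitation with an antibody against p-UPF1 (p-UPF1 IP). The cells of all 9 libraries had received okadaic acid at 200 nM over 2 h, so no library shows these genes without this phosphatase inhibitor, and 1 cell line stands for all of them. Since RNase I had cut the RNA before short fragments were read, a value is an amount of fragments and not of whole transcripts. The labels number the libraries of a group from 1 to 3 without saying whether they came from separate cultures, and p-values measure the spread between these libraries, which may be technical.

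UPF1 is the RNA helicase at the centre of NMD. When a ribosome stops at a termination codon with an exon junction complex still lying downstream, UPF1 is phosphorylated, and p-UPF1 recruits the factors that degrade the RNA. Okadaic acid blocks the dephosphorylation of UPF1. A snoRNA host gene is transcribed and spliced like an mRNA. Most snoRNAs are released from excised introns, trimmed and packed into snoRNPs: box C/D snoRNAs guide 2′-O-methylation and box H/ACA snoRNAs guide pseudouridylation of ribosomal and spliceosomal RNA. The spliced exons of noncoding hosts reach the cytoplasm, where ribosomes read only short open reading frames, and Gas5 (growth arrest-specific 5) is the textbook case of such an RNA that NMD keeps low.

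The host loci hold 34 annotated snoRNA genes with 32 symbols. The following 6 show the range of the snoRNA results: Gm22489 and Gm23212 in introns of Gas5, both among the 5 most counted in the p-UPF1 IP, the near-identical pair Snord50a and Snord50b of Snhg5, and Snord22 of Snhg1 and Snora24 of Snhg8, which did not differ between p-UPF1 IP and Input by the test. The sequences are from the GENCODE M21 transcripts on GRCm38, 5′ to 3′, and capitals mark, in entries that hold both, a box C core (TGATG, within the first 20 bases) and a box D (CTGA, within the last 12 bases), or else the ACA that lies 3 to 8 bases from the end of an entry over 100 bases long. Snord22 has a CTGA near its end but no TGATG near its start, so nothing in it is marked.
Gm22489 (chr1:161035850-161035911, plus strand): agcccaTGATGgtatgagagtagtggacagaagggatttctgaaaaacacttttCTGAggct
Gm23212 (chr1:161036682-161036741, plus strand): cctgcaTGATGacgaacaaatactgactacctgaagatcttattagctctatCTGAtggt
Snord50a (chr9:88521529-88521600, minus strand): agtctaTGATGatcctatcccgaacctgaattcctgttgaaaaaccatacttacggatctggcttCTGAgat
Snord50b (chr9:88521797-88521868, minus strand): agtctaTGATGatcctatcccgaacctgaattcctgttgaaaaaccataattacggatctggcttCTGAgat
Snord22 (chr19:8725866-8725991, plus strand): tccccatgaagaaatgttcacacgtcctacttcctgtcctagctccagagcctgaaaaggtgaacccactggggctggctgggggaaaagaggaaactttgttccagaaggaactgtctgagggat
Snora24 (chr3:123507937-123508066, minus strand): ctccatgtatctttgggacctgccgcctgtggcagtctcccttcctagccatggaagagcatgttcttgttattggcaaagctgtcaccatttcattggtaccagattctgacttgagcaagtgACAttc
Snord50a and Snord50b are 72 bases long and differ by 1 substitution, C50A, counted from the 5′ end. Fragments that do not cover this base fit both. By the letters searched on the given strand, 17 of the 34 entries held both C and D boxes (50.0%, against 21.7% of all 1558 annotated snoRNA and scaRNA entries), 11 held the ACA (32.4%, against 44.2%) and 6 met neither rule, Snord22 among them.

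What ribosomes could read in the spliced hosts is shown by the open reading frame that starts at the first ATG of the most-counted transcript without a snoRNA in its exons. It is given for Gas5, Snhg15 and Snhg5, with the start and stop codons in capitals, because the results by transcript turn on these 3.
Gas5-224: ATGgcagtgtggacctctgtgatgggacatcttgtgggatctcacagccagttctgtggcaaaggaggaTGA
Snhg15-204: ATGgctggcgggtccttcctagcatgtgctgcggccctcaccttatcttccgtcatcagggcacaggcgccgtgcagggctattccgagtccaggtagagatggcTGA
Snhg5-202: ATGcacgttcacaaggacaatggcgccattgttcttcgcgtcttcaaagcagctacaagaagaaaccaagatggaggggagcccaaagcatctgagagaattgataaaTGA
The frame is 23 codons long in Gas5-224, a transcript of 502 nt and 12 exons, and 7 exon junctions lie more than 50 nt downstream of its stop codon. It is 35 codons long in Snhg15-204, with 3 such junctions, and 36 codons long in Snhg5-202, with 2. For the 10 hosts (for Snhg12, a transcript that keeps a snoRNA), this first frame had 1 to 96 codons, and in 8 of the 10 at least 1 junction lay past that distance. The exceptions were Snhg1-209 and Snhg3-203. Snhg1-209 is annotated as a retained intron of 312 nt. The less counted Snhg1-205 and Snhg1-211, also without a snoRNA and with 9 and 10 exons, have 6 and 5 such junctions. Over all 87 annotated transcripts, 72 had such a junction, 29 of the 38 without and 43 of the 49 with a snoRNA in an exon.

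Depth differed by group. Total counts were 25184464 to 29857955 in Input, 5312526 to 6246110 in the p-UPF1 IP and 79010 to 474491 in the rIgG IP. The 10 hosts took 0.0229% to 0.0246% of the counts in Input, 0.0251% to 0.0367% in the rIgG IP and 0.159% to 0.198% in the p-UPF1 IP. Of 11 markers of neuronal and sympathoadrenal cells, 10 had counts in Input (summed level 171 to 183 counts per 1000000, CPM), with Nefl at 0 and Nefm at 1 count, and 8 markers of other cell types summed to 1.73 to 1.83 CPM. In the p-UPF1 IP the summed levels were 153 to 162 and 0.687 to 1.55 CPM. In bulk libraries, fewer cells that express a gene and less of its RNA per cell cannot be told apart.

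Summed over their transcripts, 9 of the 10 hosts were higher in the p-UPF1 IP than in Input by edgeR's quasi-likelihood test with Benjamini-Hochberg adjustment, and for 7 of them the increase passed a log2 fold change of 1, here called enriched. Of all 16919 genes tested, 17.3% were enriched and 26.5% were depleted (log2 fold change under -1). No host was depleted by edgeR or by DESeq2, and at an unadjusted p under 0.05 only Snhg3 was lower. The median log2 fold change was 1.85 for the 10 hosts and -0.42 for all genes tested. Scaling by library totals in place of the TMM method turned 2919 enriched and 4480 depleted genes into 4108 and 3160, while the direction of each host stayed. In the following, levels are CPM scaled by the TMM method, given as mean ± SD of 3 libraries, and fold changes are log2 values ± SE.

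**Figure D1:**
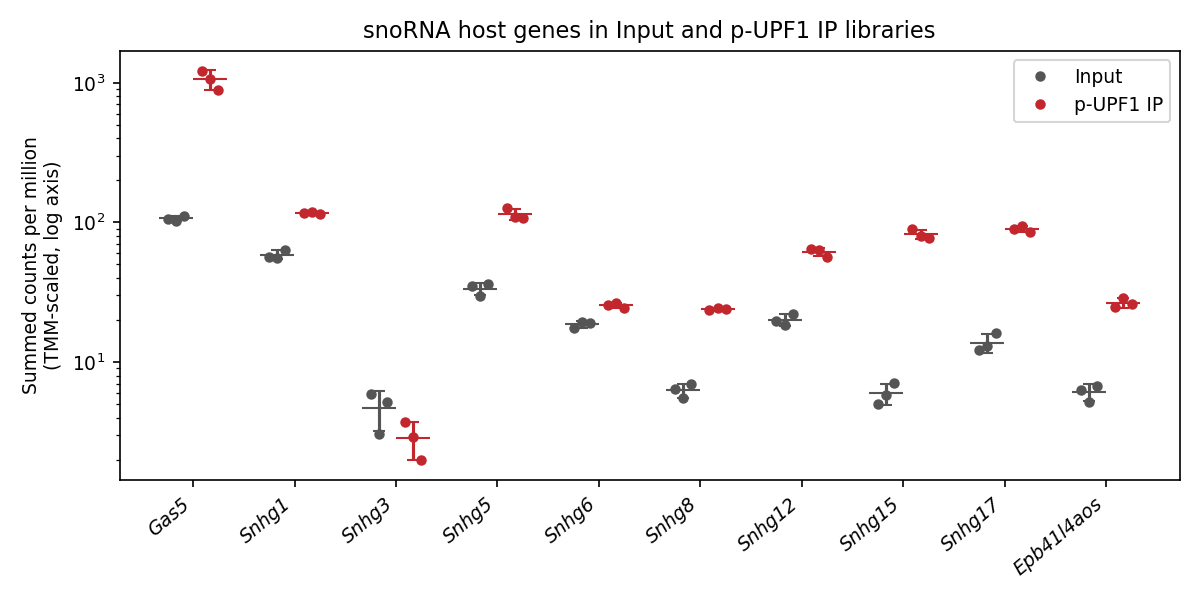
Levels of the 10 snoRNA host genes, in TMM-scaled CPM on a log axis, in the 3 Input (grey) and 3 p-UPF1 IP (red) libraries, with mean and SD. The groups overlap only for Snhg3, and Gas5 lies at 886 to 1224 CPM in the p-UPF1 IP against 102 to 111 CPM in Input.

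Snhg15, a host of 1 box H/ACA snoRNA, Snora9, on chromosome 11 (6525591 to 6528760, minus strand), had the largest increase of the 10. Its level was 5.04, 5.81 and 7.07 CPM in the Input libraries and 89.2, 79.9 and 77.8 CPM in the p-UPF1 IP libraries. The groups lie far apart, with a log2 fold change of 3.78 ± 0.12 (adjusted p = 2.93e-09). Gas5, which carries snoRNAs in most of its introns on chromosome 1 (161034422 to 161038539, plus strand), was the most counted host in all 3 groups. It had 106, 102 and 111 CPM in Input and 1224, 1070 and 886 CPM in the p-UPF1 IP. The p-UPF1 IP values spread by 169 CPM (SD) around a mean of 1060 and stayed above every Input value, at 3.31 ± 0.12 (adjusted p = 6.28e-09). Snhg17, on chromosome 2 (158353700 to 158361580, minus strand), hosts 3 H/ACA-like entries. Its level was 12.1, 13.0 and 16.2 CPM in Input and 89.7, 94.5 and 84.7 CPM in the p-UPF1 IP, a log2 fold change of 2.70 ± 0.11 (adjusted p = 1.43e-08).

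Epb41l4aos, an antisense-named noncoding host of 1 snoRNA entry, rose from 6.08 ± 0.85 to 26.5 ± 2.2 CPM, by 2.12 ± 0.12 (adjusted p = 1.09e-07). Where counting ignored strand, its reads and those of a gene on the opposite strand could not be told apart. Snhg8, a short gene that hosts Snora24 on chromosome 3 (123507552 to 123508404, minus strand), rose from 6.28 ± 0.72 to 23.9 ± 0.6 CPM, by 1.93 ± 0.10 (adjusted p = 7.44e-08). Snhg5, the host of Snord50a and Snord50b on chromosome 9 (88521050 to 88522929, minus strand), rose from 33.6 ± 3.5 to 114 ± 10 CPM, by 1.77 ± 0.10 (adjusted p = 1.15e-07). These 3 genes covered a narrow range of fold changes although their levels in Input, compared per length below, differed. Snhg12, the host of Snora16a, Snora44, Snora61 and Snord99 on chromosome 4 (132308623 to 132311024, plus strand), was the lowest of the enriched hosts, with 20.1 ± 1.9 CPM in Input, 61.3 ± 4.2 CPM in the p-UPF1 IP and a log2 fold change of 1.61 ± 0.09 (adjusted p = 1.35e-07).

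Snhg1, the host of 8 snoRNAs on chromosome 19 (8723475 to 8726443, plus strand), lay at the threshold. Its level was 56.7, 55.8 and 63.8 CPM in Input and 117, 119 and 115 CPM in the p-UPF1 IP, a log2 fold change of 0.99 ± 0.07 (adjusted p = 1.02e-06). The groups did not overlap, but the value is just under the limit of 1 for enrichment, and it was just above it with DESeq2 (1.01). Snhg6, the host of Snord87 on chromosome 1 (9941959 to 9944118, minus strand), had the smallest increase, from 18.7 ± 1.0 to 25.5 ± 1.0 CPM (0.45 ± 0.08, adjusted p = 6.62e-04), also without overlap. Snhg3, which hosts Snora73a and Snora73b on chromosome 4 (132348014 to 132353686, minus strand), was the only host with a lower mean in the p-UPF1 IP. It had 5.91, 3.04 and 5.18 CPM in Input and 3.73, 2.88 and 1.97 CPM in the p-UPF1 IP. The groups overlapped and the difference did not pass the test (-0.74 ± 0.30, adjusted p = 0.0574), although it passed with DESeq2 (-0.72, adjusted p = 0.0485), with the replicate number as a block (-0.70, adjusted p = 0.0149), with filterByExpr (-0.71, adjusted p = 0.0462), without a filter (-0.82, adjusted p = 3.03e-03) and without Input replicate 2 (-0.96, adjusted p = 3.66e-03).

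Levels can be compared between the hosts only per length, as the sum over transcripts of CPM per kilobase of transcript. In Input, Gas5 was highest with 159 ± 19 CPM per kilobase, followed by Snhg1 with 93.2 ± 5.8, Snhg5 with 52.5 ± 6.0 and Snhg6 with 31.1 ± 1.8. Snhg12 (21.4 ± 1.9) and Epb41l4aos (18.9 ± 2.6) overlapped, and so did Snhg15 (range 9.32 to 13.2), Snhg8 (8.71 to 11.2) and Snhg3 (6.07 to 11.5), with Snhg17 last (6.02 to 7.12) and overlapping Snhg3. In the p-UPF1 IP, Gas5 stayed highest (1288 ± 200), whereas Snhg15 rose to 125 ± 9 CPM per kilobase, overlapping Snhg5 (134 ± 12) and above Snhg1 (107 ± 3). Snhg3 was last with 5.26 ± 1.61. The order in the p-UPF1 IP therefore was not that in Input. Snhg15 and Snhg3 had overlapping levels in Input and stood at the opposite ends of the fold changes.

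The rIgG IP gives the background of the recovery on beads. No host passed the test between rIgG IP and Input by edgeR or by DESeq2 (of all 16280 genes tested, edgeR called 0.584% enriched and 0.313% depleted), and 2 did at an unadjusted p under 0.05: Gas5, higher in the rIgG IP (0.51 ± 0.18, adjusted p = 0.256), and Snhg6, lower with 6 counts in all. The counts are small. Over the 3 rIgG IP libraries, Gas5 had 116 counts, Snhg1 35, Snhg5 21, Snhg12 and Snhg17 14 each, Snhg15 and Snhg6 6 each, Epb41l4aos and Snhg8 2 each, and Snhg3 0.

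Against the rIgG IP, 9 of the 10 hosts were enriched in the p-UPF1 IP, where 17.5% of 12033 genes were enriched and 5.34% depleted, and none was depleted by edgeR or DESeq2, with all 10 higher at an unadjusted p under 0.05. The median log2 fold change was 2.81 for the hosts and 0.89 for all genes tested. With RLE factors, 1456 of all genes were enriched and 799 depleted, in place of 2102 and 643 by TMM. This comparison uses the same p-UPF1 IP libraries as that over Input. For the hosts with at least 10 rIgG IP counts, the values were 3.06 ± 0.24 for Gas5, 2.56 ± 0.35 for Snhg17, 2.31 ± 0.28 for Snhg5, 2.00 ± 0.33 for Snhg12 and 1.61 ± 0.27 for Snhg1, with adjusted p-values from 5.42e-10 to 7.16e-05. Snhg15, at 10.2, 4.66 and 8.47 CPM in the rIgG IP libraries and 113, 100 and 97.6 CPM in the p-UPF1 IP libraries of this fit, was separated by a wide gap in spite of its 6 rIgG IP counts. For Epb41l4aos, the pooled ratio of p-UPF1 IP to rIgG IP was 12.1, with a 95% counting interval of 3.35 to 101, and for Snhg8 it was 10.9 (3.01 to 90.7). The intervals cover counting error only. Without rIgG IP replicate 1, the deepest of that group, 8 hosts were enriched, Snhg6 did not pass (1.82, adjusted p = 0.0605), and Snhg17, with 11 of its 14 rIgG IP counts in that library, was at 3.63. For Snhg3, a background at 0 counts and 57 counts in the p-UPF1 IP gave no call (adjusted p = 0.117), and at this depth no fold can be given.

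To see which RNAs of a host the p-UPF1 IP held, each gene was split into transcripts with and without an annotated snoRNA in an exon. Of the 87 transcripts, 49 had such an exon, most of them annotated as retained introns, and 8 genes had counts on both kinds. The split did not give 1 direction. Of the 8 parts with a snoRNA, 6 were enriched and 2 depleted, and of the 9 tested parts without, 6 were enriched, 1 was higher and 2 were depleted, while 17.3% and 26.5% of all 16995 parts tested were enriched and depleted. The median was 1.38 for the parts with and 2.12 for the parts without a snoRNA, beside -0.42 for all parts.

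**Figure D2:**
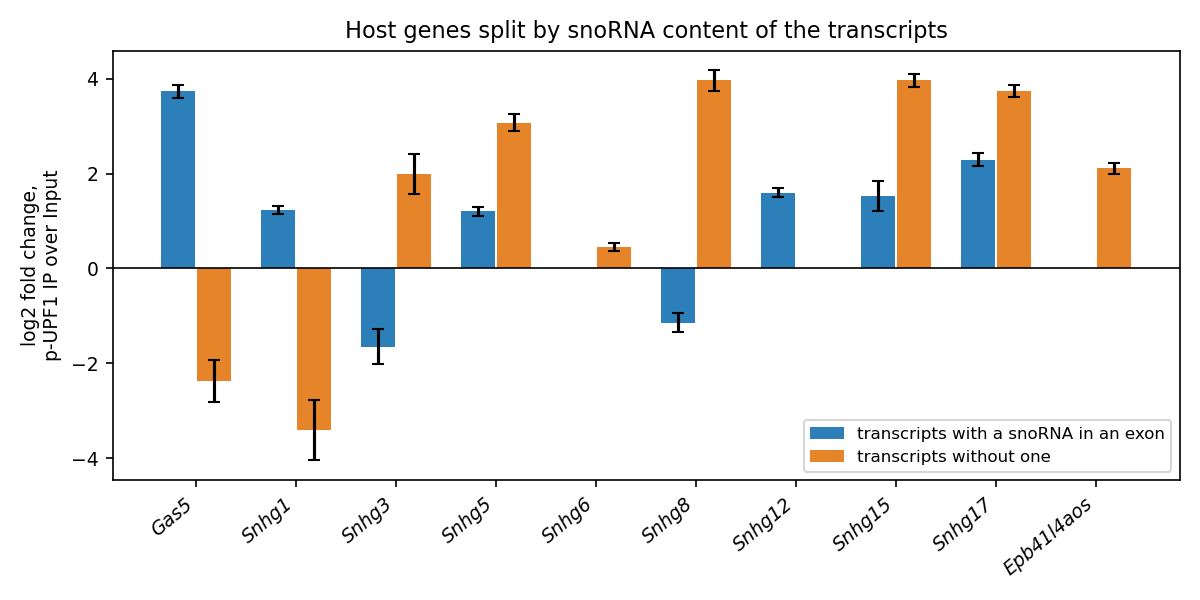
Log2 fold change of p-UPF1 IP over Input for each host gene split into transcripts with a snoRNA in an exon (blue) and without one (orange), bars from 0 with SE. Gas5 and Snhg1 rise on the blue side and fall on the orange side, and Snhg3 and Snhg8 do the opposite. Snhg6 and Epb41l4aos have no transcript with a snoRNA in an exon, and the part of Snhg12 without one had too few counts to test.

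In Gas5 and Snhg1 the enrichment was assigned to the part that keeps a snoRNA. The Gas5 part with a snoRNA had 73.5, 90.4 and 73.5 CPM in Input and 1218, 1064 and 879 CPM in the p-UPF1 IP (3.73 ± 0.14, adjusted p = 1.06e-08). Its part without a snoRNA had 33.1, 12.0 and 38.1 CPM in Input and 4.23, 5.76 and 5.91 CPM in the p-UPF1 IP, and was depleted (-2.38 ± 0.44, adjusted p = 9.39e-04). For Snhg1, the part with a snoRNA was enriched (1.24 ± 0.09, adjusted p = 7.12e-07). The part of Snhg1 without one had 205, 248 and 223 counts in Input against 18, 0 and 0 in the p-UPF1 IP (-3.42 ± 0.63, adjusted p = 9.32e-04), a call that DESeq2 did not make (adjusted p = 0.176), and without p-UPF1 IP replicate 1 no count is left in that group, while it was at -2.75 without replicate 2 and -2.77 without replicate 3.

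In Snhg3 and Snhg8 the directions were the other way round. The Snhg8 part without a snoRNA had 2.09, 0.849 and 1.21 CPM in Input and 21.5, 21.9 and 21.7 CPM in the p-UPF1 IP (3.97 ± 0.21, adjusted p = 1.26e-07), and the part that keeps Snora24 was depleted (-1.15 ± 0.20, adjusted p = 6.39e-04). The Snhg3 part without a snoRNA was enriched on few counts, 25 in Input and 29 in the p-UPF1 IP (1.99 ± 0.42, adjusted p = 2.28e-03), and the part with Snora73a was depleted (-1.65 ± 0.37, adjusted p = 3.06e-03). The sum of Snhg3 thus hid opposite changes by this split, which rests on Snhg3-202: its exon overlaps Snora73a only in part, and no Snhg3 transcript with counts holds a whole snoRNA. In Snhg15, Snhg17 and Snhg5 both parts were enriched, with the larger value on the part without a snoRNA: 3.97 ± 0.14 against 1.53 ± 0.31 in Snhg15, 3.75 ± 0.13 against 2.30 ± 0.13 in Snhg17, and 3.08 ± 0.18 against 1.21 ± 0.10 in Snhg5. Snhg12 was counted almost wholly on transcripts that keep a snoRNA (1.60 ± 0.09).

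The share of a gene's counts on transcripts with a snoRNA sets its parts side by side without any scaling between libraries. In Gas5 it was 68.9%, 88.3% and 65.9% in Input against 99.7%, 99.5% and 99.3% in the p-UPF1 IP. In Snhg1 it rose from 83.5% ± 3.0 to 99.1% ± 1.5. It was lower in the p-UPF1 IP in the other 5 genes: 78.2% ± 9.3 against 9.15% ± 1.34 in Snhg8, 91.3% ± 5.2 against 49.2% ± 1.4 in Snhg3, 82.3% ± 2.3 against 56.4% ± 7.6 in Snhg5, 81.4% ± 3.3 against 62.0% ± 4.4 in Snhg17, and 16.3% ± 4.3 against 3.32% ± 0.86 in Snhg15. In all 7 genes the groups did not overlap, and the two-sided exact permutation test gave p = 0.1 for each, the smallest value that 3 against 3 libraries allow, so that none can pass 0.05.

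**Figure D3:**
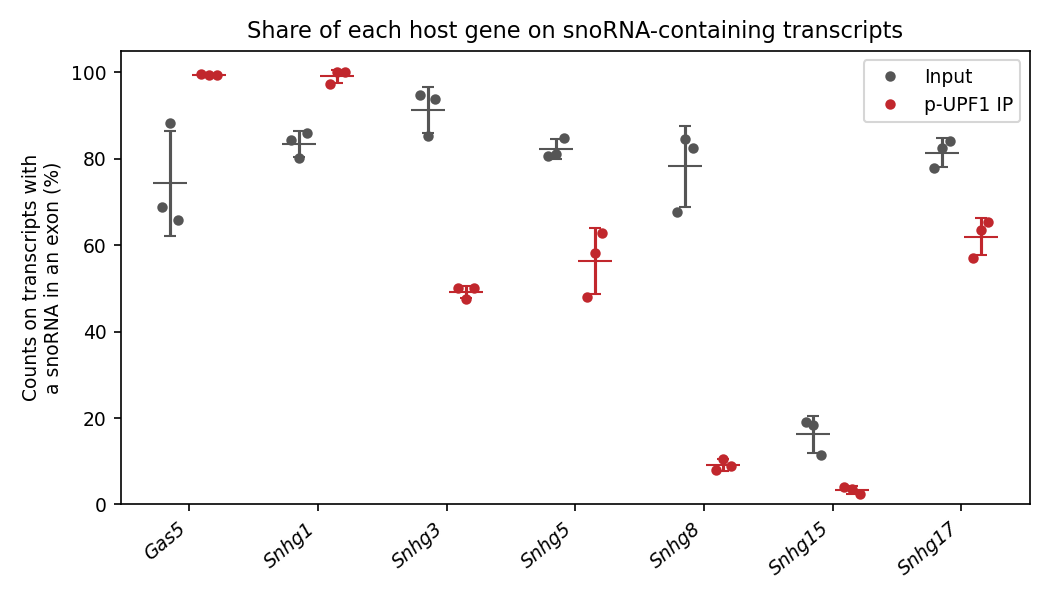
Percent of each host gene's counts on transcripts with a snoRNA in an exon, in the 3 Input (grey) and 3 p-UPF1 IP (red) libraries, with mean and SD. The p-UPF1 IP libraries lie above Input in Gas5 and Snhg1 and below it in the other 5 genes, with Snhg8 at 9.15% against 78.2%.

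The parts rest on how Salmon, which assigns fragments to transcripts by probability, divided reads among near-identical isoforms. Of the 57 host transcripts tested, 26 have no 35-nt window that occurs in no other transcript of their gene. In Gas5-224, 6.84% of the windows are absent from the Gas5 transcripts with a snoRNA, and in Gas5-208, which keeps 1, 29.7% are absent from those without. Neither has a window that no other Gas5 transcript holds, so their counts cannot be separated from those of other isoforms without the model. The sums per gene depend on it too, since some windows also fit entries counted apart: up to 26.7% of a host transcript (Snhg1-213) lies in snoRNA entries, and 16.02% of Snhg5-204 fits other genes.

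By transcript, 21 of the 57 tested were enriched, 1 was lower and 12 were depleted, where 8.55% of all 42616 transcripts tested were enriched and 16.2% depleted. The median was 1.23 for the host transcripts and -0.95 for all transcripts, of which library totals in place of TMM called 5249 enriched and 4597 depleted (3644 and 6908 by TMM). Every host but Snhg6 had at least 1 enriched transcript, and 6 hosts had transcripts called in both directions.

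Gas5-208 (ENSMUST00000159438.7), a retained-intron transcript of 779 nt and 6 exons that holds Gm22489, was assigned most of the Gas5 counts in the p-UPF1 IP. It had 599, 657 and 646 counts in Input, 29, 29 and 12 in the rIgG IP, and 6497, 6968 and 5454 in the p-UPF1 IP, a log2 fold change of 4.82 ± 0.17 (adjusted p = 1.01e-04). It took 25.3% of the Gas5 counts in Input and 88.8% in the p-UPF1 IP. The fully spliced Gas5-224 (ENSMUST00000162558.7), whose frame of 23 codons is printed above, had 693, 243 and 869 counts in Input against 20, 24 and 22 in the p-UPF1 IP, and was depleted (-3.26 ± 0.48, adjusted p = 5.82e-03). Input library 2, where Gas5-224 was lowest, was the only Input library with counts on Gas5-211, 615 of them. The retained-intron transcript ENSMUST00000163081.1 of Gas5 holds the entry named Mir5117 and overlaps Snord47 in part. It had 0 counts in the 3 Input libraries and 298, 297 and 298 in the p-UPF1 IP. That is at least 837-fold higher when computed against 3 counts over the Input group. None of its windows is its own, so the 0 in Input rests on how Salmon assigned the fragments. The bound covers counting error only.

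**Figure D4:**
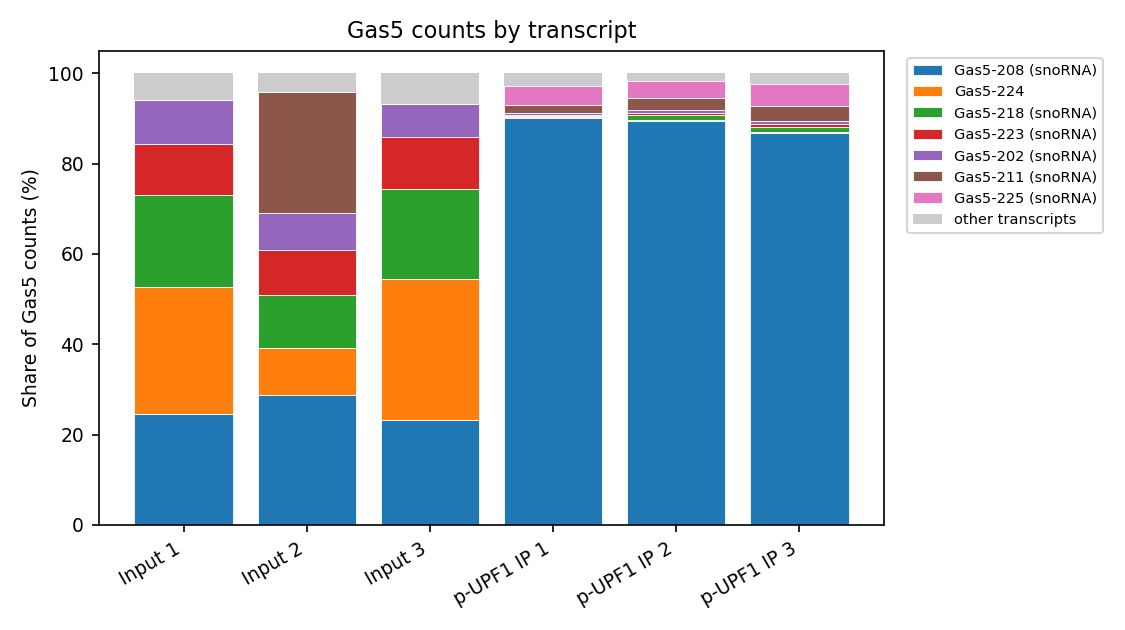
Share of the Gas5 counts on each of its most-counted transcripts, in percent, as stacked bars for the 3 Input and 3 p-UPF1 IP libraries. In the p-UPF1 IP nearly all counts lie on Gas5-208, and the spliced Gas5-224 is almost absent.

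Of the less counted Gas5 transcripts that keep a snoRNA, Gas5-206 with Gm25789 was enriched (1.85 ± 0.20) and Gas5-223 with Snord80 was depleted (-1.51 ± 0.29).

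In Snhg15 the increase lay on a spliced transcript. Snhg15-204 (ENSMUST00000147762.7, 4 exons) had 78, 96 and 137 counts in Input against 499, 552 and 530 in the p-UPF1 IP (3.85 ± 0.21, adjusted p = 3.02e-04) and held 95.2% of the gene's p-UPF1 IP counts. Of its windows, 57.9% are absent from the Snhg15 transcripts with a snoRNA, but 2.69% are found in it alone. Snhg15-201 was enriched on 6 counts in Input and 14 in the p-UPF1 IP (2.59 ± 0.66), and Snhg15-203, which keeps Snora9, was not called (1.24 ± 0.40, adjusted p = 0.0736). Snhg15-203 holds all counts of the Snhg15 part with a snoRNA, which was called enriched in the fit of parts (1.53 ± 0.31, adjusted p = 1.66e-03). The same counts thus gave different calls, because the fit by transcript scaled the libraries differently from the fit of parts.

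Snhg5 and Snhg17 had enriched transcripts of both kinds. Snhg5-202 (ENSMUST00000182232.7, 6 exons) had 3, 3 and 0 counts in Input against 370, 309 and 275 in the p-UPF1 IP (8.69 ± 0.80), with 10.3% of its windows absent from the Snhg5 transcripts with a snoRNA. Snhg5-204, which keeps Snord50a, rose from 6.03 to 35.3 CPM on average (2.55 ± 0.15). Of the other Snhg5 transcripts, Snhg5-205, which keeps Snord50b, was not called (-0.14 ± 0.12) and Snhg5-206, a retained intron without a snoRNA, was depleted (-1.56 ± 0.39). Snhg17-209 (ENSMUST00000186993.1), a single-exon transcript that keeps Gm24411, was the most counted of Snhg17. It had 172, 187 and 269 counts in Input against 258, 378 and 353 in the p-UPF1 IP (2.15 ± 0.17, adjusted p = 8.96e-04), which is 54.4% of the gene's p-UPF1 IP counts, and 77.4% of its windows are in no other Snhg17 transcript. Snhg17-206 (ENSMUST00000152125.7, 7 exons), with the longest of the 10 frames, 96 codons, had 0, 10 and 0 counts in Input against 176, 209 and 151 in the p-UPF1 IP (7.14 ± 1.37, adjusted p = 0.0151), or 29.5% of the gene, and 6.32% of its windows are its own. Snhg17-205, without a snoRNA, and Snhg17-207, with Gm23925, were also enriched, by 3.77 ± 0.54 and 2.38 ± 0.28.

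In Snhg8 and Snhg3 the transcript that overlaps a snoRNA fell. In each gene that transcript holds all counts of the part with a snoRNA, so its value repeats that part in another fit. Snhg8-203 (ENSMUST00000199645.1), whose first frame is 1 codon long, had 22, 0 and 0 counts in Input against 119, 155 and 151 in the p-UPF1 IP (5.70 ± 1.59, adjusted p = 0.0486). That call was lost in 7 of the alternatives, 5 of which left out 1 library. None of the windows of Snhg8-203 is its own, and 7.09% are absent from the Snhg8 transcript with a snoRNA. The unspliced Snhg8-202, which keeps Snora24, was depleted (-1.45 ± 0.26). Snhg3-202 had 129, 58 and 121 counts in Input against 11, 10 and 7 in the p-UPF1 IP (-1.93 ± 0.43, adjusted p = 0.0254). Snhg3-203 had 2 counts in Input and 29 in the p-UPF1 IP, a pooled ratio of 40.8 (95% counting interval 10.3 to 353), and Snhg3-204 had 23 and 0, at least 2.73-fold lower against 3 counts over the group.

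Within Snhg1, Snhg1-215 (ENSMUST00000206519.1), which has 2 exons and keeps 7 snoRNAs, rose from 87, 97 and 86 to 319, 384 and 312 counts (3.40 ± 0.15, adjusted p = 1.76e-04), and Snhg1-213, with Gm22744 and Snord22, was enriched (3.09 ± 0.25). By contrast, 4 other Snhg1 transcripts with 125 to 409 counts in Input had none in the p-UPF1 IP, and only Snhg1-209 of these lacks a snoRNA: Snhg1-203 keeps 6, ENSMUST00000206961.1 keeps Gm23246 and Snhg1-206 overlaps Gm24453 in part. Snhg1-214, with Gm22680 and Gm22744, was not called (-0.70 ± 0.22, adjusted p = 0.0638). The enrichment of Snhg1 was therefore assigned to some of the transcripts that keep a snoRNA and not to others.

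Snhg12 was split in the same way among transcripts that keep a snoRNA. Snhg12-205 (ENSMUST00000144705.8), its most counted transcript, which keeps Snord99, rose (1.89 ± 0.10), and so did Snhg12-203 with Snora44 (4.59 ± 1.14). Snhg12-201 and Snhg12-208, at 0 in Input, were at least 21.6-fold and 90.02-fold higher. Snhg12-209 and Snhg12-210, with 247 and 427 counts in Input, had 0 in the p-UPF1 IP. They were at least 29.3-fold and 50.6-fold lower, each bound being against 3 counts over the group. Of the Snhg12 transcripts named here, only Snhg12-209 has windows found in no other Snhg12 transcript, 1.39% of them. These bounds therefore cover counting error only and rest on how Salmon divided the reads. Snhg6-205 (ENSMUST00000182819.7) had 118, 0 and 164 counts in the p-UPF1 IP and was not called. Both Epb41l4aos transcripts were enriched, 2.21 ± 0.17 for Epb41l4aos-201 and 1.22 ± 0.24 for Epb41l4aos-202.

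The snoRNA genes inside the host loci are counted in the table under their own entries. A fragment of a snoRNA fits both its own entry and a host transcript that keeps it, and fragments of the mature snoRNA, of the excised intron and of unspliced host RNA cannot be told apart. Of the 32 symbols, 25 were enriched over Input in the p-UPF1 IP, 2 were higher and 5 did not pass, with a median log2 fold change of 3.07. Of the other annotated snoRNA and scaRNA symbols, 208 of 300 tested were enriched, with a median of 2.48. Whether the entries inside the hosts differ from the others was not tested.

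**Figure D5:**
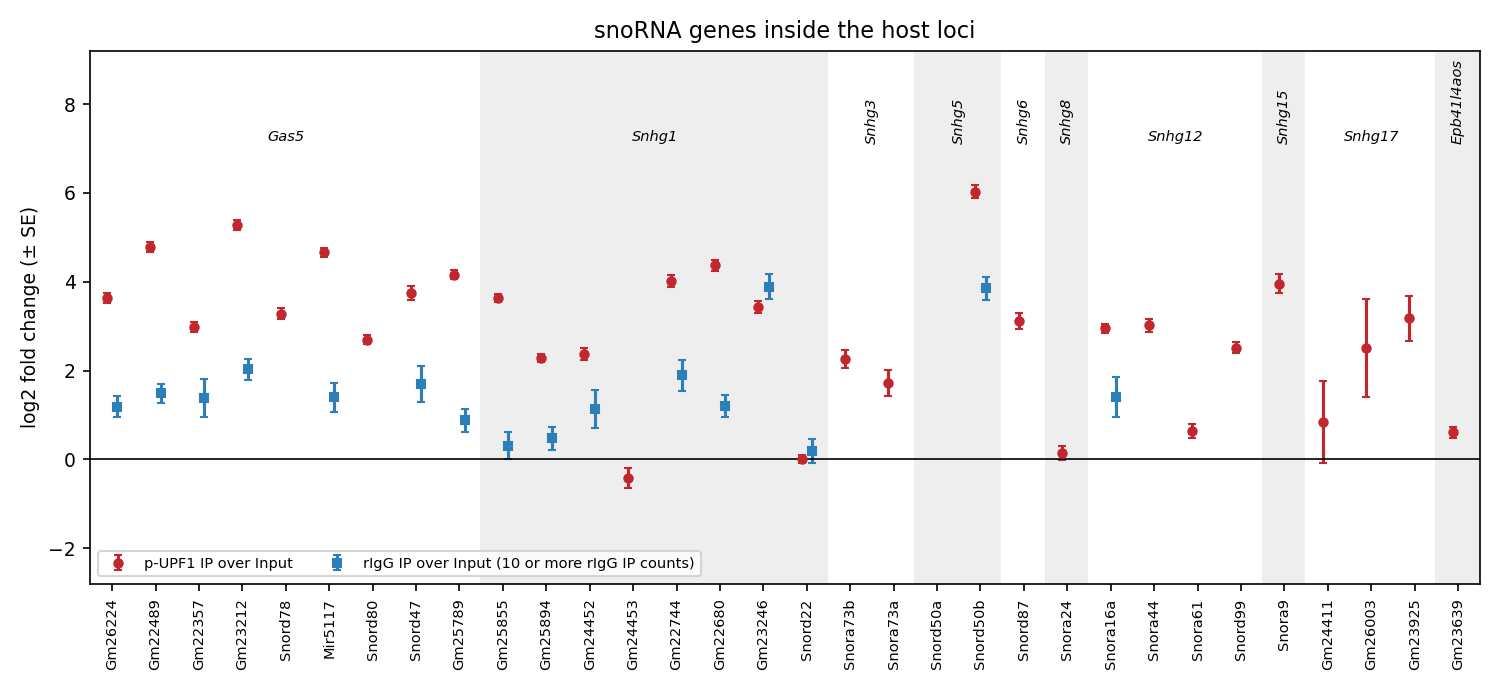
Log2 fold change ± SE of the snoRNA genes inside each host locus, p-UPF1 IP over Input (red circles) and rIgG IP over Input (blue squares, for entries with at least 10 rIgG IP counts). Snord50a, with 0 counts in Input, is not plotted. Red values reach 6.03 for Snord50b, and Snord22, Snora24 and Gm24453 lie near 0 or below.

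Snord50b, a box C/D snoRNA of Snhg5, was the most counted in the p-UPF1 IP. It had 939, 1034 and 1062 counts in Input, 172, 196 and 77 in the rIgG IP, and 18834, 21549 and 16376 in the p-UPF1 IP. The p-UPF1 IP was enriched over Input by 6.03 ± 0.14 (adjusted p = 7.45e-10) and over the rIgG IP by 2.43 ± 0.27 (adjusted p = 2.22e-07), but the rIgG IP was itself enriched over Input by 3.85 ± 0.26 (adjusted p = 1.51e-05). Snord50a, which differs from it only by C50A, had 0 counts in Input against 17, 7 and 14 in the p-UPF1 IP, and how many fragments belong to each of the pair is uncertain. The same holds for Snora73a and Snora73b of Snhg3, which are 205 bases long and differ at 7 positions.

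The most-counted Gas5 snoRNAs all rose over both controls. Gm22489, the C/D snoRNA inside Gas5-208, had 1409, 1275 and 1586 counts in Input, 52, 50 and 23 in the rIgG IP, and 11369, 11728 and 10329 in the p-UPF1 IP (4.78 ± 0.12 over Input, 3.54 ± 0.27 over the rIgG IP). Gm23212 had 617, 648 and 765 counts in Input against 7479, 8001 and 7093 in the p-UPF1 IP (5.28 ± 0.11 over Input, 3.52 ± 0.26 over the rIgG IP). Gm25789 rose by 4.16 ± 0.10 and Gm26224 by 3.63 ± 0.10 over Input. All 9 Gas5 symbols were enriched over Input, with a median of 3.74.

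In the Snhg1 locus, 2 snoRNAs of like abundance in Input gave different calls. Gm25855 had 1211, 1273 and 1385 counts in Input against 4401, 5058 and 4403 in the p-UPF1 IP (3.64 ± 0.09, adjusted p = 7.85e-10). Snord22, the other most-counted entry there, had 1102, 960 and 1218 counts in Input against 257, 378 and 315 in the p-UPF1 IP, a log2 fold change of 0.00 ± 0.09 at the depths of these libraries (adjusted p = 0.974). Of the 8 Snhg1 symbols, 6 were enriched and 2, Snord22 and Gm24453 (-0.41 ± 0.22, adjusted p = 0.132), did not pass. Snora24 of Snhg8 also did not pass (0.14 ± 0.15, adjusted p = 0.440), while the counts that Salmon assigned to host transcripts without a snoRNA were enriched.

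Grouped by the letters searched, all 16 symbols with C and D boxes were enriched over Input, with a median of 3.88. In that comparison 208 of 300 other snoRNA and scaRNA symbols (median 2.48) and 17.3% of all genes were enriched. The 16 symbols ranged from 2.38 to 6.03 where Input had counts. Snord50a, at 0 in Input, was at least 43.9-fold higher against 3 counts over the group. That bound covers counting error only, since fragments assigned to Snord50a may belong to Snord50b. Of the 10 with the ACA, 5 were enriched (median 1.99, range 0.14 to 3.95), and of the 6 that met neither rule, 4 were (median 2.65). The others among these 6 were Snord22 and Gm24453, which did not pass. Both have a CTGA near the end, and in Gm24453 a TGATG starts within the first 20 bases and ends just past them. That all with C and D boxes were enriched therefore holds for this search rule and not for every snoRNA of that kind. The difference between the kinds was not tested. Against the rIgG IP, 20 of 31 symbols tested were enriched, beside 143 of 263 other snoRNA and scaRNA symbols and 17.5% of all genes. In the rIgG IP over Input itself, 6 of 30 were enriched, Snord50b, Gm22489, Gm23212 and Gm26224 among the most counted. There, 11 of 271 other snoRNA and scaRNA symbols and 0.584% of all genes were enriched. No host gene was called in that last comparison.

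Other hosts are given for comparison, with no test against the 10. Of all genes tested, 17.3% were enriched and 26.5% depleted. Of 12 further noncoding hosts listed, 9 could be tested: 2 were enriched, 3 higher, 2 did not pass and 2 were depleted, with a median of 0.71. 1110038B12Rik, the most counted, was also the highest (1.81 ± 0.07), with its part that keeps a snoRNA at 2.21 ± 0.07 and its part without at -4.50 ± 0.32, the same directions as in Gas5. Snhg11, with 58 counts in Input and 1 in the p-UPF1 IP, was the lowest. Of 24 protein-coding snoRNA hosts, 2 were enriched, 1 higher, 1 did not pass, 8 were lower and 12 depleted, with a median of -1.0. Eef2, a translation elongation factor and the most counted, was lower (-0.77 ± 0.07), and Tpt1 was the lowest (-4.19 ± 0.18). Nop56, a core protein of box C/D snoRNPs, was the highest of them (2.69 ± 0.08), at 3.45 ± 0.09 on transcripts that keep a snoRNA and 0.88 ± 0.10 on those without. Transcripts that keep a snoRNA were enriched in 8 of the 18 protein-coding hosts that have them, depleted in 3 and lower in 1. Those without were enriched in 1 of 24 and depleted in 13.

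Of the 8 genes that encode snoRNP core proteins, Nop56 was enriched, Gar1 was higher (0.55 ± 0.13), Fbl did not pass (-0.33 ± 0.16) and 5 were lower or depleted, with Snu13 the lowest (-2.62 ± 0.12). Over all other genes with annotated snoRNAs in exons, 32 of 85 parts with a snoRNA were enriched and 13 depleted. Of 71 parts without, 16 were enriched and 35 depleted. Among all parts tested, as among all genes, 17.3% were enriched and 26.5% depleted.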

How the data were processed

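The authors trimmed reads with fastp and, per the submitters' processing notes, aligned and counted them with STAR 2.7.0f and Salmon 0.13.1 on GRCm38. They deposited estimated counts per transcript as whole numbers, with no scaling to depth. All 9 columns were matched to libraries by name. Whether the counting used strand is not given in the sources used here. Replicates differed by more than sampling noise (chi-square per degree of freedom 9.61 to 26.5).

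From these counts, pairs of groups were compared with edgeR 4.0.16 in R 4.3.3 (TMM, quasi-likelihood test, features with a summed count of at least 10 in the 6 libraries, Benjamini-Hochberg adjustment over all features). Enriched means a log2 fold change above 1 and an adjusted p under 0.05. Counts were summed per gene symbol, and per symbol and snoRNA content: 139921 of 140658 rows, including all 87 host rows, were matched to GENCODE M21 (the authors used a later release of the build), and a transcript counts as holding a snoRNA if an exon overlaps one on the same strand by at least 1 base. Unmatched rows count as without. The SE is the fold change over the root of its F. Lower bounds use 3 counts over a group, and counting intervals are exact. At 3 counts, a library can show 0.1 to 0.119 CPM (Input), 0.48 to 0.565 (p-UPF1 IP) and 6.32 to 38.0 (rIgG IP), for counting error only. These CPM are per library total, without the TMM scaling of the levels above. Windows and open reading frames were read from the transcript sequences.

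The hosts and lists were chosen with earlier results of these data known. Named are all hosts, their most-counted transcripts overall and per kind (for Snhg12, the kind without a snoRNA had 3 counts in all and is not described) and those called, the 5 most-counted snoRNAs in Input and in the p-UPF1 IP, and of each list the most-counted, highest and lowest gene. Snord50a, Snora24, Gm24453, Gas5-211, Gar1 and Fbl were added after their values were seen. As alternatives, RLE factors, library totals, DESeq2 1.42.0, other filters, all 9 libraries in one fit, a replicate block, a fold limit of 0, and leaving out each library were run. The procedure was tested on simulated data. The authors' DESeq2 results, RNA-seq and blots are not used here.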

Additional observations from a re-analysis of the deposited data

How the results depend on the processing

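The counts of enriched and depleted hosts stayed within 1.5 times under every alternative (7 to 9 enriched over Input, 8 or 9 over the rIgG IP), as did the counts of enriched snoRNAs, 25 to 28. Library totals in place of TMM moved the median of all genes over Input by 0.41 (log2). They turned the split over Input from 2919 enriched and 4480 depleted genes to 4108 and 3160. The filter filterByExpr moved that median by 0.30. It moved most with no filter on low counts, to -1.42 from -0.42 in the report, with 2804 genes enriched and 4776 depleted. With library totals, 1 part with a snoRNA (2 in the report) and 7 transcripts (12) were depleted, ENSMUST00000183045.1 of Snhg5 reversed to 0.57 and ENSMUST00000206462.1 of Snhg1 to 0.019. DESeq2 called 1 part without a snoRNA depleted (2 in the report). The replicate numbers did not pair the libraries: same-numbered libraries correlated at -0.0016, 0.051 and 0.039 between p-UPF1 IP and Input. With the replicate block, 11 transcripts were enriched (21) and 1 depleted (12), ENSMUST00000182819.7 of Snhg6 was at -0.61, 7 hosts stayed enriched over Input, and Snhg3 passed the test (-0.70, adjusted p = 0.0149). Leaving out 1 library gave 7 (without Input replicate 1 or 3) to 11 depleted transcripts, ENSMUST00000182819.7 at -0.046 and -0.32 (without p-UPF1 IP replicate 1 or 3; range -0.32 to 0.83), and Snord22 at -0.038 and -0.051 (without Input or p-UPF1 IP replicate 2; range -0.051 to 0.090). Requiring the whole snoRNA inside 1 exon gave a difference in share of 20.2 points for Snhg1 (15.7) and none for Snhg3, which then has no transcript with a snoRNA. For single genes and transcripts, 776 values kept direction and call, 75 lost and 10 gained the call, and 7 reversed; the causes were not tested. Over all genes, calls against the rIgG IP ranged from 1199 (DESeq2) to 2306 enriched and from 307 (without rIgG IP replicate 1) to 914 depleted (2102 and 643 in the report), those of rIgG IP over Input from 65 to 295 and from 25 to 259 (95 and 51), and those by transcript from 1075 (replicate block) to 5325 and from 1459 to 8079 (3644 and 6908). Depth limits the rIgG IP most, where 5 hosts had 6 counts or fewer.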
